A study of Mus musculus with 24 samples.

Results

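STAU2-bound RNA from the brain cortex of C57BL/6 mouse embryos was compared between 2 stages, named by embryonic day, E17.5 and E13.5. The comparison sets the end of cortical neurogenesis against an early stage of it, with 3 RNA immunoprecipitation libraries made with an antibody against STAU2 at each stage. The measurements are counts over regions (peaks) in which STAU2-bound RNA piled up, each split by strand and given to a gene in the deposited table. Rows with a gene symbol that were not called Intergenic were taken, which are 14292 of 18975 rows, over 13503 merged peaks and 7967 genes. The table calls 6699 of these rows 3' UTR, 5914 exon, 1136 5' UTR and 543 intron. The 12 count columns carry a stage and a number that the labels give both to an immunoprecipitation and to its input. Since the table is a list of peaks, the columns were taken for the immunoprecipitations, and all values depend on this. The inputs were not analysed here, so a difference between stages may lie in how much of an RNA was present, in how much of it was bound, or in both. In bulk tissue, fewer cells of a type and less RNA per cell cannot be told apart. The labels do not say whether the libraries of a stage came from separate animals, so the p-values speak only of the spread among these libraries.

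STAU2 is a vertebrate relative of Drosophila Staufen and binds double-stranded stretches of RNA, often in 3' UTRs. In neurons it travels along microtubules in RNA granules that carry messages into dendrites. In the developing cortex it has been found unequally shared between the daughters of dividing radial glia, the stem cells that line the ventricle, with more of it in the daughter that becomes an intermediate progenitor or a neuron.

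The middle of 3 rows is shown, because they give an example of a stretch of coding sequence whose STAU2-bound level rose (Tubb2b and Tuba1b, which encode tubulins) and of one whose level fell (Neurog1, a proneural transcription factor). The 30 central bases of each are printed 5′ to 3′ on the strand of the gene, from GENCODE M21 transcripts (mm10, minus strand), and no letter is in capitals because no motif was marked. They lie at chr13:34128188-34128217, chr15:98931970-98931999 and chr13:56251206-56251235.
Tubb2b: gaaacctactgcatcgataatgaggctctg
Tuba1b: ggcttgctgcctgctataccgtggtgatgt
Neurog1: tgctccacacgacgccctgtttcatcccat

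Gene-row totals were 6000348 to 6328346 counts in the E13.5 libraries and 4685708 to 5181736 in the E17.5 libraries. The median gene row held 78 to 89 counts at E13.5 and 64 to 75.5 at E17.5. The 10 rows with the most counts in each library took 29.3% to 32.0% of its gene-row counts at E13.5 and 25.02% to 28.2% at E17.5. Of the 10 rows with the most counts over both stages, 8 were introns. Levels are given as CPM, the counts of a row scaled to a common total of gene-row counts after TMM normalization,, in the order of replicates 1, 2 and 3. Changes are log2 of E17.5 over E13.5 from edgeR's quasi-likelihood test, given with a standard error. The test does not give that error, which was taken as the size of the change over the square root of the test's F statistic. A row or gene is said to have risen or fallen only at a Benjamini-Hochberg adjusted p under 0.05.

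Of 14101 rows tested, 4039 (28.6%) differed between the stages. At E17.5, 1909 rows (13.54%) were higher and 2130 (15.1%) were lower, and the median change of all rows was -0.01. Among these, 1232 rows had changed by more than 4-fold, 521 upward and 711 downward. The 3 libraries of a stage lay wholly above the 3 of the other in 5985 rows (42.4% of those tested), and in 3850 of the 4039 rows that passed the test. The rows fall on 2781 genes. Of 793 genes with at least 2 changed rows, 780 had all of those rows moving one way, and 13 genes had a risen and a fallen row.

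**Figure D1:**
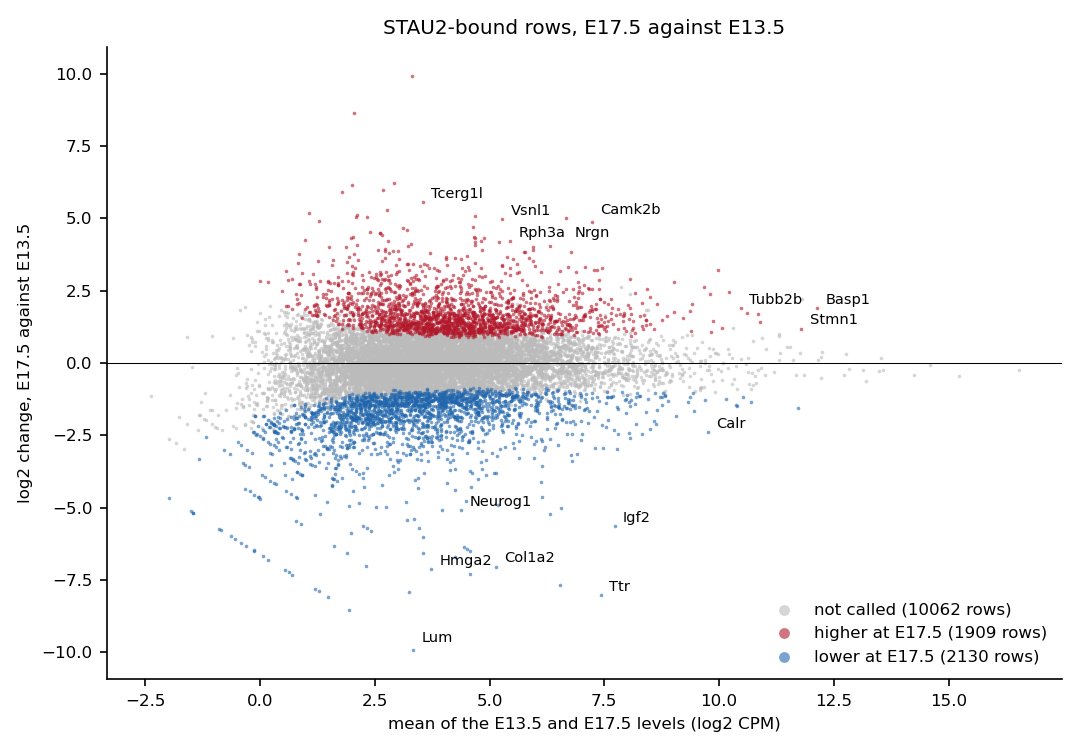
Each point is 1 of the 14101 tested rows, with its mean level (log2 CPM) on the horizontal axis and its fitted log2 change from E13.5 to E17.5 on the vertical axis. Camk2b and Nrgn lie near the top and Ttr and Igf2 near the bottom, and the fitted values of rows with 0 counts in all 3 libraries of a stage, such as Lum, depend on the prior count and are not fold changes.

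The E15.5 libraries, which are no part of the comparison, were read only for position. The mean of the E15.5 libraries lay between those of the compared stages in 1777 of the 1909 risen rows (93.1%). It did so in 1912 of the 2130 fallen rows (89.8%) and in 49.6% of rows that did not pass the test. Called rows were picked for a wide gap between the compared stages, into which the E15.5 mean falls more easily. The difference between these shares therefore does not show how gradual the changes were. At E15.5 the median risen row had covered 0.324 of its log2 change and the median fallen row 0.267. The median was 0.290 in rows that did not pass the test, so this share does not set the changed rows apart. The E15.5 mean was closer to E17.5 than to E13.5 in 323 risen rows (16.92%) and 344 fallen rows (16.15%). In rows that did not pass, it was closer to E17.5 in 37.16%. On the log2 scale the larger step thus came after E15.5 in most changed rows.

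Of the 12 named rows with the largest rise, those of Nrgn and Camk2b had the highest levels at E17.5. Nrgn encodes neurogranin, a postsynaptic protein that binds calmodulin. Its 3' UTR row (chr9:37544706-37545212, minus strand) had 9.74, 3.62 and 5.11 CPM at E13.5 and 169, 194 and 231 CPM at E17.5. No E17.5 library came near an E13.5 library, and the change was 5.002 ± 0.53 (adjusted p = 6.4e-07). At E15.5 the row was still low, at 16.2, 8.51 and 5.90 CPM. Camk2b encodes the beta subunit of calcium/calmodulin-dependent kinase II. Its row over a coding exon (chr11:5982299-5982703, minus strand) went from 12.3, 9.11 and 8.31 CPM to 194, 453 and 220.3 CPM, a change of 4.87 ± 0.51 (adjusted p = 6.5e-07). The second E17.5 library was the highest and the other two E17.5 libraries were close to each other.

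Vsnl1, which encodes the neuronal calcium sensor visinin-like 1, had 2.78, 3.33 and 1.02 CPM in its 3' UTR row at E13.5 and 45.0, 84.1 and 96.1 CPM at E17.5 (4.98 ± 0.49). Rimbp2 and Rph3a act at the presynapse. Rimbp2, a scaffold that ties calcium channels to release sites, rose from 1.39, 2.03 and 1.02 CPM to 28.9, 59.1 and 61.3 CPM (5.06 ± 0.50). Rph3a, which encodes the vesicle protein rabphilin, rose from 4.04, 2.46 and 6.65 CPM to 71.9, 90.4 and 85.6 CPM (4.22 ± 0.43). In both genes the stages were far apart, with no overlap.

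Grin2d, a subunit of NMDA-type glutamate receptors, went from 3.62, 1.45 and 1.92 CPM to 35.1, 63.5 and 46.4 CPM (4.36 ± 0.50). Kcnip2, an accessory subunit of A-type potassium channels, went from 3.90, 2.75 and 1.92 CPM to 52.9, 37.4 and 70.5 CPM (4.23 ± 0.45). Arpp21, a phosphoprotein of neurons regulated by cAMP, went from 3.62, 3.18 and 4.86 CPM to 95.6, 73.1 and 42.5 CPM (4.17 ± 0.44). The E17.5 libraries of Arpp21 differed among themselves by more than those of the other two, and all lay above E13.5.

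Npy, the neuropeptide of a class of interneurons, had 2.23, 3.47 and 1.66 CPM at E13.5 and 37.3, 53.7 and 54.9 CPM at E17.5 in its 3' UTR row (4.30 ± 0.43). Tafa2, which encodes a small secreted protein, rose by 4.69 ± 0.41 and Tcerg1l by 5.57 ± 0.64. Tcerg1l was close to absent at E13.5, with 0.278, 1.16 and 0 CPM from 10 counts in all, and reached 18.6, 16.1 and 33.8 CPM at E17.5. Mast1, a kinase bound to microtubules, rose by 4.30 ± 0.44 in a row that the table calls 3' UTR and the GENCODE M21 annotation places in a coding exon. A row of Dnase2a lies on the other strand of the same peak.

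Of the 12 named rows with the largest fall, that of Ttr had the second highest level at E13.5, after Igf2. Ttr encodes transthyretin, a carrier protein made by the choroid plexus. Its exon row had 299, 367 and 361 CPM at E13.5 and 2.02, 1.09 and 0.786 CPM at E17.5, a change of -8.03 ± 0.52 (adjusted p = 1.4e-09). Lum, which encodes the matrix proteoglycan lumican, had 16.4, 26.3 and 17.6 CPM in its 3' UTR row at E13.5 and no count in any E17.5 library. With 3 counts over a stage's libraries as the floor, it was at least 119-fold lower at E17.5, a bound that covers counting error only.

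The fibrillar collagens were also close to absent at E17.5. Col3a1 went from 47.3, 46.9 and 48.7 CPM to 0, 0.543 and 0.315 CPM (-7.30 ± 0.62) and Col1a2 from 72.5, 52.9 and 83.2 CPM to 0.672, 0.723 and 0.157 CPM (-7.04 ± 0.50). Col1a1 fell by 6.49 ± 0.51 and Dcn, the proteoglycan decorin, by 6.37 ± 0.49 on the log2 scale. The basement membrane collagen Col18a1 fell by 6.02 ± 0.52, the proteoglycan Bgn by 4.90 ± 0.47 and the lipid carrier Apod by 4.38 ± 0.44 on that scale. Of these 12 rows, 5 belong to genes in a set of 6 meningeal markers and 1 to a choroid plexus marker. The sum over the 6 meningeal markers, all in the table, was 299 to 320 CPM at E13.5 and 2.67 to 3.70 CPM at E17.5. Their part in the changes of other genes was not tested.

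The rest were rows of Igf2, Hmga2 and Neurog1. Igf2 encodes an imprinted growth factor of embryonic tissues. Its 3' UTR row (chr7:142652827-142653143, minus strand) had 487, 528 and 229 CPM at E13.5 and 5.21, 9.77 and 9.75 CPM at E17.5 (-5.65 ± 0.49, adjusted p = 5.3e-08). An unnamed gene model overlaps that row on the same strand. Hmga2, a chromatin protein of young neural stem cells, went from 18.1, 30.8 and 30.2 CPM to 0, 0.543 and 0 CPM. With 3 counts at E17.5, all from 1 library, its E13.5 to E17.5 ratio was 157 (95% interval 53.5 to 764). That interval covers counting error only and not the spread among libraries. Neurog1, whose sequence is printed above, went from 46.8, 27.8 and 47.2 CPM to 0.168, 1.99 and 1.42 CPM in its row at chr13:56251048-56251392 (-5.08 ± 0.56). The table calls that row 3' UTR and GENCODE places its centre in the coding exon.

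Among changed rows with the highest counts, the 6 named as risen belong to Basp1, Stmn1, Dpysl3, Mllt11, Tubb2b and Tuba1b. Basp1, a membrane protein of growth cones, went from 1414, 2481 and 1780.1 CPM to 6733, 11059.7 and 3468 CPM (1.91 ± 0.41). Its E17.5 libraries spread over 3-fold and all lay above E13.5. Stmn1, which encodes the tubulin-binding protein stathmin, went from 2395, 2250.2 and 1846 CPM to 5171, 5225 and 4399.9 CPM (1.19 ± 0.36). Dpysl3, a collapsin response mediator, rose by 1.72 ± 0.36 and Mllt11 by 1.41 ± 0.39. Stmn1 did not pass the test without replicate 3 of E13.5 and Mllt11 did not without replicate 2 of E13.5.

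The Tubb2b row whose middle is printed above had 592, 778 and 433 CPM at E13.5 and 1204, 2921 and 2575 CPM at E17.5 (1.89 ± 0.40). The Tuba1b row had 1323, 598 and 675 CPM and 2220.4, 3495 and 2746 CPM (1.70 ± 0.39). Both genes have near-identical relatives, and the sources used here do not give how reads that fit several copies were counted, so the split between tubulin genes is uncertain.

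With unnamed gene models left out and 1 row taken per gene, the 6 fallen rows with the highest counts were picked. They are those of Tpt1-ps3, Rpl39, Rpl31-ps8, Cdk2ap1, Pabpc1 and Calr, from the highest E13.5 mean to the lowest. Calr, which encodes the calcium-binding chaperone calreticulin, went from 1948, 1596 and 803 CPM to 318, 259 and 257 CPM (-2.38 ± 0.40, adjusted p = 1.2e-04). Pabpc1, the cytoplasmic poly(A)-binding protein, fell in its 5' UTR row from 2390.4, 1896 and 1567 CPM to 642, 513 and 965 CPM (-1.47 ± 0.37). Cdk2ap1, which encodes a cell cycle regulator, fell by 1.49 ± 0.36 on the log2 scale. Rows over Tpt1-ps3 (-1.55), Rpl39 (-1.35) and Rpl31-ps8 (-1.18) fell too and had the highest E13.5 levels of the 6, but pseudogenes and ribosomal protein genes have many copies and these rows are uncertain. Rpl31-ps8 overlapped between the stages and lost its call without replicate 1 or 2 of E13.5 and without replicate 1 or 3 of E17.5.

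Counts were then summed over the rows of each gene, so that a gene with many rows counts once. Of 7873 genes tested, 2841 (36.1%) changed. At E17.5, 1375 (17.46%) were higher and 1466 (18.6%) were lower, and the median change was 0.0040. Changes in the next paragraphs are those of whole genes, and each list is set against these shares and this median. A list count of 0 in a direction is by edgeR, and DESeq2 called 0 in that direction too (the erythroid list was not run with DESeq2). At an unadjusted p under 0.05 those counts stayed at 0, except 1 fallen microtubule gene (Map2) and 2 fallen erythroid genes.

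**Figure D2:**
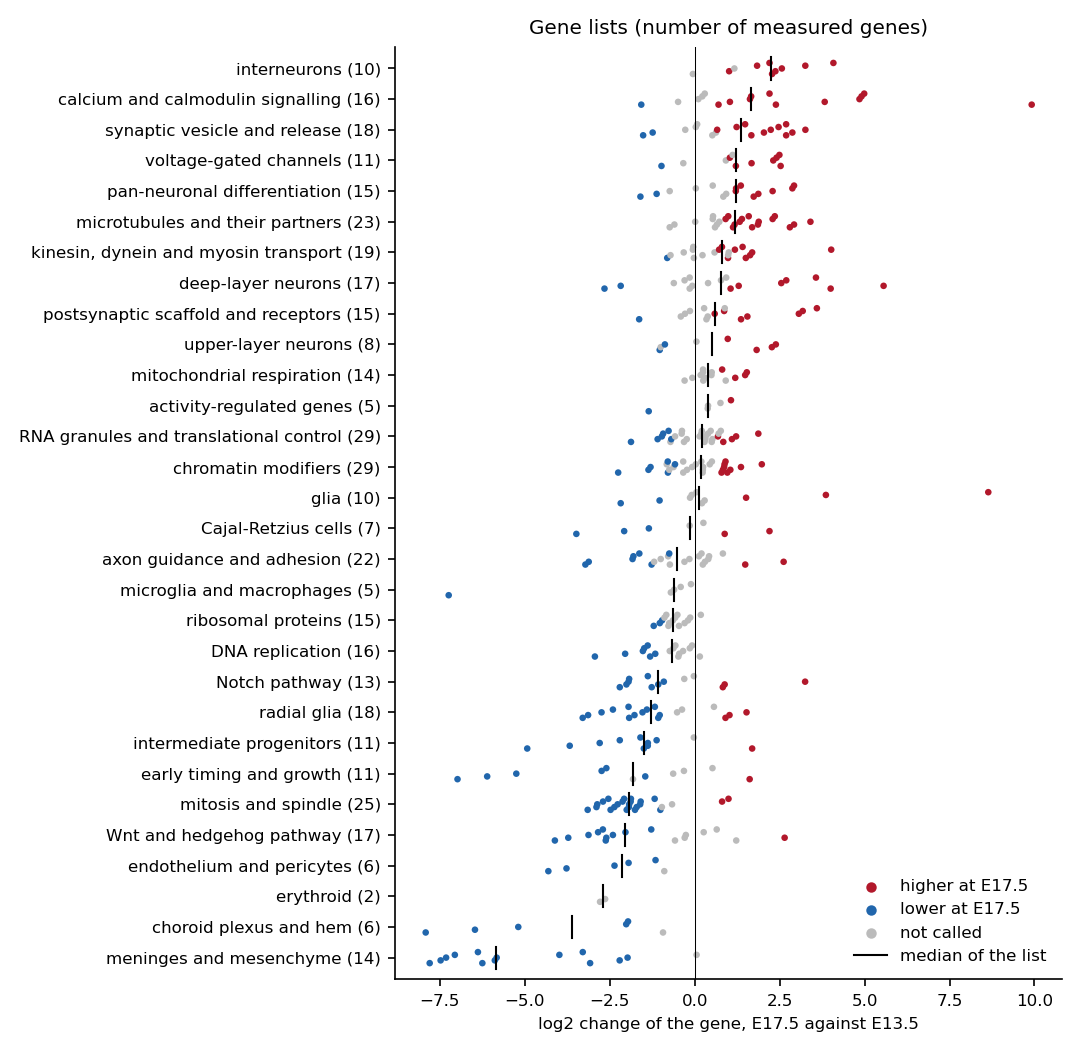
Each point is 1 measured gene of a list, with its fitted log2 change from E13.5 to E17.5 on the horizontal axis, and the bar is the list's median. Of the 30 lists, interneuron genes have the highest median (2.24) and meningeal genes the lowest (-5.86), and genes with 0 counts in all libraries of a stage sit at a fitted value that depends on the prior count.

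Messages of differentiated neurons rose more often than they fell. Of 15 measured pan-neuronal genes, 8 rose and 2 fell, with a median change of 1.21. Snap25, a SNARE protein of synaptic vesicle fusion, went from 73.5, 77.6 and 71.6 CPM to 576, 512 and 544 CPM over its 3 rows (2.87 ± 0.27, adjusted p = 2.6e-06). The libraries of each stage were close together. Mapt, which encodes the microtubule protein tau, went from 62.8, 92.7 and 78.5 CPM to 635, 628 and 512 CPM (2.92 ± 0.34). Stmn2, a stathmin of growing axons, rose by 2.29 ± 0.31 and the RNA-binding protein Celf4 by 1.87 ± 0.25. The 2 that fell were Neurod1 (-1.60), a transcription factor of newly born neurons, and Elavl4 (-1.12), a neuronal RNA-binding protein. Neurod6, a factor of glutamatergic cortical neurons, had 921, 649 and 689 CPM and 837, 862 and 610.5 CPM and did not pass the test (0.03 ± 0.32).

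Synaptic vesicle and release genes gave 11 risen and 2 fallen of 18 measured, with a median of 1.36. Besides Snap25, the smallest p-values were those of Stx1a, the SNARE partner of Snap25 in the plasma membrane (2.69 ± 0.33), Ppfia2, a liprin of the active zone (2.69 ± 0.34), and Rims1, an active zone scaffold (3.26 ± 0.51). Rims1 had 4.31, 1.57 and 1.82 CPM at E13.5 and 25.3, 25.4 and 23.4 CPM at E17.5. The 2 that fell were the vesicular glutamate transporters Slc17a6, from 29.3, 18.9 and 21.9 CPM to 7.27, 7.99 and 9.16 CPM (-1.52 ± 0.29), and Slc17a7, from 69.0, 74.1 and 80.0 CPM to 24.3, 33.8 and 36.5 CPM (-1.24 ± 0.30). Neither of them overlapped between the stages. Syp, which encodes the vesicle protein synaptophysin, did not pass (0.03 ± 0.31).

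Postsynaptic genes gave 7 risen and 1 fallen of 15 measured, with a median of 0.59. Shank1, a scaffold of excitatory postsynaptic sites, went from 37.1, 50.4 and 51.1 CPM to 345, 418 and 397 CPM over 4 rows (3.06 ± 0.27, adjusted p = 1.6e-06). Grin1, the obligatory subunit of NMDA receptors, went from 2.22, 2.86 and 3.50 CPM to 33.2, 40.3 and 31.1 CPM (3.60 ± 0.42). Dlg2, a scaffold of the same family as PSD-95, rose by 3.18 ± 0.38. Dlg4, which encodes PSD-95 itself, rose by 0.59 ± 0.21 and lost its call in 8 of the alternatives tried. Homer2 fell (-1.64 ± 0.38) and Homer1 did not pass (0.38 ± 0.37).

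Calcium and calmodulin signalling genes gave 11 risen and 1 fallen of 16 measured, with a median of 1.64. Camkv, a pseudokinase that binds calmodulin, went from 14.6, 11.3 and 16.9 CPM to 216, 159.9 and 232 CPM (3.83 ± 0.29). Ryr3, a calcium release channel of the endoplasmic reticulum, went from 1.39, 0.858 and 0.649 CPM to 23.6, 30.2 and 34.8 CPM (4.91 ± 0.41). Ptk2b, a calcium-activated tyrosine kinase, had no count in the 3 E13.5 libraries and 12.6, 16.5 and 30.5 CPM at E17.5, at least 147-fold higher against the floor of 3 counts. The member that fell was Ppp3cb, a catalytic subunit of calcineurin, from 31.1, 33.9 and 32.3 CPM to 10.9, 11.01 and 10.7 CPM (-1.57 ± 0.27). Its relative Ppp3ca rose by 0.70 ± 0.26 and lost that call in 8 alternatives.

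Voltage-gated channel genes gave 7 risen and 1 fallen of 11, with a median of 1.21. The calcium channel subunits Cacna1c (2.53 ± 0.41) and Cacna1b (2.49 ± 0.42), the potassium channel Kcnc1 (2.41 ± 0.47) and the sodium channel Scn1a (2.31 ± 0.45) rose. Cacna1c had 5.97, 9.44 and 7.01 CPM at E13.5 and 57.5, 40.5 and 31.6 CPM at E17.5. Cacna2d1, an accessory calcium channel subunit, went the other way, from 76.9, 93.9 and 86.4 CPM to 48.1, 45.1 and 37.3 CPM (-0.98 ± 0.25).

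Microtubule genes gave 15 risen and 0 fallen of 23 measured (edgeR), with a median of 1.17. Without replicate 3 of E17.5, 1 fell. Map6, a protein that stabilises microtubules against cold, went from 8.33, 7.87 and 8.70 CPM to 81.3, 94.3 and 88.9 CPM (3.41 ± 0.28, adjusted p = 6.0e-07). Its libraries lay close together within each stage. Dst, a linker between filament systems, rose by 1.86 ± 0.27. Map2, the dendritic microtubule protein and a message known from dendrites, was 33.9, 23.5 and 25.3 CPM at E13.5 and 15.9, 12.97 and 20.7 CPM at E17.5, which did not pass the test (-0.74 ± 0.29, adjusted p = 0.061). Dcx, a microtubule protein of migrating neurons, did not pass either (0.53 ± 0.51).

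Motor protein genes gave 9 risen and 1 fallen of 19, with a median of 0.80. Without replicate 1 of E13.5, 5 of them rose. Dync1i1, a dynein intermediate chain, went from 9.03, 9.59 and 8.96 CPM to 180.0, 98.2 and 169 CPM (4.02 ± 0.33, adjusted p = 6.0e-07). Its second E17.5 library was the lowest of that stage and still far above E13.5. Kinesin light chain Klc1 rose by 1.504 ± 0.28, the dynactin subunit Dctn1 by 1.18 ± 0.25 and the axonal kinesin Kif1a by 1.63 ± 0.37. The kinesin heavy chain Kif5b (-0.71 ± 0.38) and Kif5c (0.23 ± 0.26) did not pass. Myo10, an unconventional myosin, fell by 0.81 ± 0.24 on the log2 scale, a call lost without replicate 1 or 3 of E17.5.

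Axon guidance genes gave 7 fallen and 2 risen of 22 measured, with a median of -0.52, which was -0.17 without replicate 1 of E13.5. Dcc, the netrin receptor, went from 55.0, 73.1 and 67.8 CPM to 9.09, 4.26 and 7.58 CPM (-3.22 ± 0.36). Sema5a, a membrane semaphorin, went from 31.3, 44.8 and 46.3 CPM to 2.64, 5.86 and 5.53 CPM (-3.12 ± 0.35). At E15.5 Dcc was at 58.6 ± 18.8 CPM and Sema5a at 33.0 ± 8.55 CPM (SD, n = 3), within the range of the E13.5 libraries for both. The ephrin receptor Epha4 (-1.83 ± 0.31) and the secreted semaphorin Sema3a (-1.63 ± 0.32) also fell. Dscaml1, an adhesion molecule, rose (1.49 ± 0.29). Chl1, an adhesion molecule of the L1 family, rose by 2.62 ± 0.90 with libraries that overlapped, and lost its call without any 1 of 4 libraries (replicates 1 and 2 of E13.5, replicates 1 and 3 of E17.5).

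**Figure D3:**
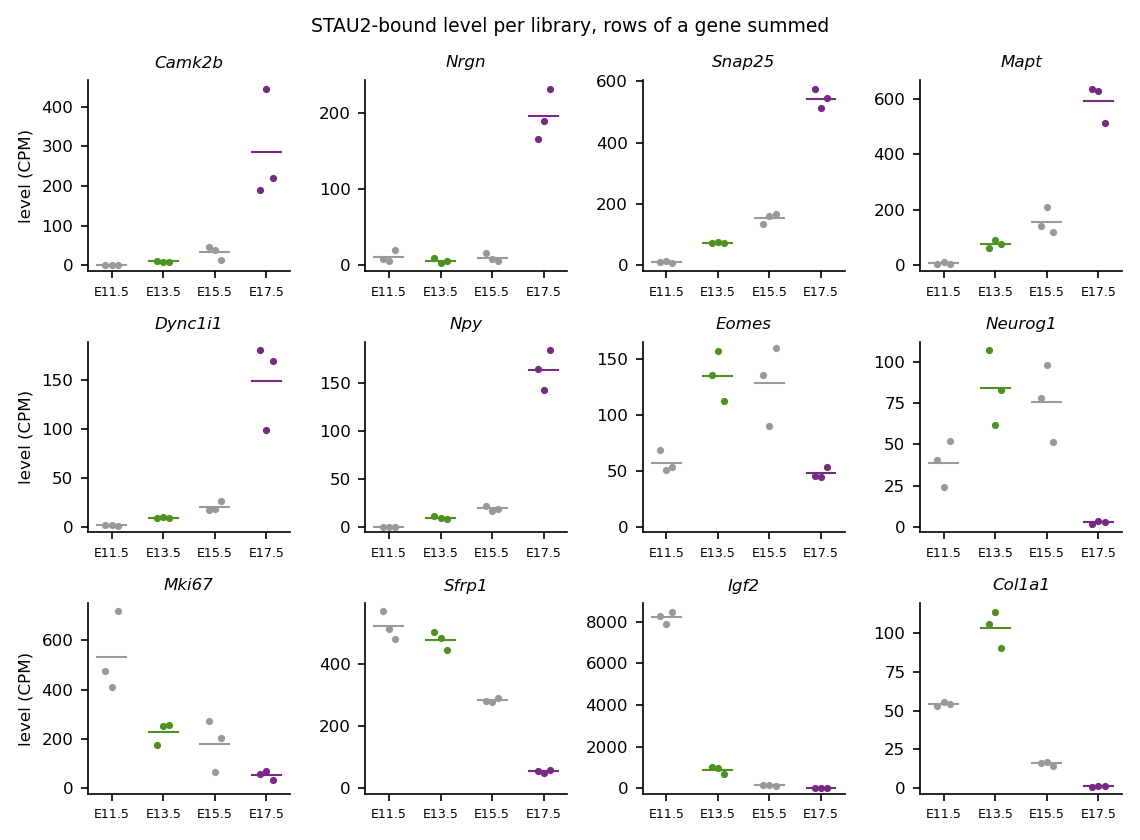
Each panel plots the level of 1 gene (CPM, rows summed) in each library, with a bar at the mean of the 3 libraries of a stage and with E13.5 in green, E17.5 in purple and E11.5 and E15.5 in grey as context. Camk2b, Nrgn, Snap25, Mapt, Dync1i1 and Npy are highest at E17.5, and the other 6 genes are lower at E17.5 than at E13.5.

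Genes of cortical layers moved both ways. Deep-layer genes gave 7 risen and 2 fallen of 17, with a median of 0.77. Ldb2 (2.55 ± 0.26), Hs3st4 (2.69 ± 0.31) and the neurotensin receptor Ntsr1 (3.57 ± 0.44), all marks of deep-layer projection neurons, rose with Tcerg1l. Fezf2, the selector of subcerebral projection neurons, had 564, 655 and 782 CPM and 527, 541 and 559 CPM and did not pass (-0.30 ± 0.23). Nfia (-2.18 ± 0.31) and Nxph4 (-2.66 ± 0.43) fell. Of 8 measured upper-layer genes, 4 rose and 2 fell, with a median of 0.51. Without replicate 1 of E13.5 or replicate 2 of E17.5, 1 fell.

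Among upper-layer genes, Dok5 (2.27 ± 0.26) and Lmo4 (1.82 ± 0.24) rose, and the homeobox genes Lhx2 (-1.03 ± 0.24) and Cux1 (-0.88 ± 0.27) fell. Tbr1, a factor of early-born deep-layer neurons, did not pass the test in its 3' UTR row, with 83.4, 117 and 136 CPM and 123, 102 and 90.6 CPM (-0.09 ± 0.33). A sparse exon row of Tbr1, under 6 CPM in each library, fell by 2.05 ± 0.52 on the log2 scale.

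Interneuron genes gave 8 risen and 0 fallen of 10 measured, with a median of 2.24. These cells are born outside the cortex and migrate into it. Npy went from 11.4, 8.87 and 8.70 CPM to 164, 143 and 184 CPM over 2 rows (4.08 ± 0.29, adjusted p = 1.9e-07). The transcription factor Dlx2 went from 16.1, 24.0 and 21.03 CPM to 113, 108 and 96.4 CPM (2.38 ± 0.25) and Dlx5 rose by 2.28 ± 0.28. Gad1, which makes the transmitter GABA, went from 2.36, 2.003 and 2.86 CPM to 18.3, 27.9 and 23.4 CPM (3.26 ± 0.35). Sst, the somatostatin gene, was 387, 151 and 306 CPM at E13.5 and 257, 237 and 319.6 CPM at E17.5 and did not pass (-0.05 ± 0.43). The summed level of the 3 interneuron markers in the table (Gad1, Dlx2, Dlx5) was 34.2 to 40.7 CPM at E13.5 and 187 to 233 CPM at E17.5, and its part in the rise of the neuronal lists was not tested.

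Progenitor messages fell more often than they rose. Of 18 measured radial glia genes, 12 fell and 3 rose, with a median of -1.29. The homeobox factor Emx2 went from 246, 294 and 179.8 CPM to 34.9, 24.3 and 22.4 CPM (-3.14 ± 0.33). Prom1, which encodes the apical membrane protein prominin, went from 111, 107 and 117 CPM to 19.2, 6.22 and 8.53 CPM (-3.30 ± 0.37). Gli3, a hedgehog pathway repressor, fell by 2.41 ± 0.29 and the endothelin receptor Ednrb by 2.74 ± 0.34 on the log2 scale. Pax6 and Sox2 each had 1 row. Pax6 went from 112, 207 and 111 CPM to 25.5, 63.7 and 37.7 CPM (-1.76 ± 0.52) and Sox2 from 13.2, 32.7 and 21.4 CPM to 6.38, 13.4 and 3.77 CPM (-1.52 ± 0.45), and Sox2 overlapped between the stages. Both calls were lost without replicate 2 of E13.5, and without replicate 1 or 3 of E17.5.

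The 3 radial glia genes that rose were Fabp7, a fatty acid-binding protein, from 241, 378 and 288 CPM to 1024, 939.6 and 647 CPM (1.52 ± 0.31), Hopx (1.02 ± 0.26) and Ptprz1 (0.91 ± 0.29). Hopx and Ptprz1 mark outer radial glia in primates. Ptprz1 lost its call without replicate 1 or 2 of either stage. The summed level of the 5 radial glia markers (Pax6, Sox2, Emx2, Hes5 and Fabp7) overlapped between the stages, at 606 to 927 CPM and 715 to 1112 CPM. Fabp7, which rose, made up most of that sum at E17.5, while Emx2, Pax6 and Sox2 fell. The sum therefore does not show that the markers were level.

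Intermediate progenitor genes gave 9 fallen and 1 risen of 11 measured, with a median of -1.50. Over its 2 rows, Neurog1 went from 107, 61.8 and 82.8 CPM to 1.82, 3.55 and 2.84 CPM (-4.93 ± 0.41, adjusted p = 6.7e-07). Nhlh1, a helix-loop-helix factor of newborn neurons, went from 230.1, 164 and 150.3 CPM to 10.7, 16.3 and 15.3 CPM (-3.68 ± 0.38). Both were still at 75.7 ± 23.4 CPM and 203 ± 98.9 CPM (SD, n = 3) at E15.5. Mfap4 fell by 2.80 ± 0.33 on the log2 scale. Eomes, which encodes TBR2, the defining factor of these progenitors, went from 119.7, 147 and 93.1 CPM to 40.1, 39.97 and 44.7 CPM in its 3' UTR row (-1.53 ± 0.35). Its exon row fell by 1.18 ± 0.36, a call lost without replicate 3 of E13.5 and without replicate 1 or 2 of E17.5. The list's member that rose, Kif26b (1.69 ± 0.48), is a kinesin-family gene and lost its call without replicate 1 or 3 of E13.5.

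Notch signalling keeps radial glia from differentiating. Its genes gave 8 fallen and 3 risen of 13 measured, with a median of -1.07. The receptors Notch2 (45.6, 43.2 and 49.5 CPM to 10.9, 9.95 and 15.3 CPM, -1.93 ± 0.28), Notch3 (-2.01 ± 0.34) and Notch1 (-1.95 ± 0.38) fell. So did the ligand Dll3 (-1.38 ± 0.24) and Rbpj (-1.27 ± 0.22), the DNA-binding partner of the cleaved receptor. Of the other ligands, Jag2 rose from 0.972, 0.429 and 0.909 CPM to 8.27, 11.55 and 2.84 CPM (3.25 ± 0.65). Numbl, a Notch antagonist, rose by 0.88 ± 0.23, while its relative Numb fell by 0.91 ± 0.31 on the log2 scale, a call lost without replicate 1 or 2 of either stage.

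Wnt and hedgehog pathway genes gave 10 fallen and 1 risen of 17 measured, with a median of -2.04. Lef1, a DNA-binding partner of beta-catenin, went from 47.5, 43.2 and 68.9 CPM to 2.98, 2.84 and 3.32 CPM over 8 rows (-4.12 ± 0.30). The Wnt inhibitor Sfrp1 went from 504, 485 and 448 CPM to 56.2, 50.5 and 57.8 CPM (-3.13 ± 0.23, adjusted p = 2.3e-07). Tcf7l1, a transcriptional repressor of the same family as Lef1, went from 331, 389 and 365 CPM to 30.6, 33.4 and 18.2 CPM over 8 rows (-3.72 ± 0.31). Smo, the signal transducer of hedgehog, fell by 2.70 ± 0.27 on the log2 scale. In these 4 genes the libraries of a stage lay close together and the stages did not overlap. The member that rose was Apc2 (2.65 ± 0.35), a neuronal relative of the beta-catenin regulator Apc. Apc itself did not pass (0.65 ± 0.42).

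Nearly the whole list of mitosis genes moved one way. Of 25 measured mitosis genes, 21 fell and 2 rose, with a median of -1.93. Plk4, the kinase that starts centriole duplication, went from 73.9, 74.4 and 75.4 CPM to 11.1, 8.70 and 10.3 CPM (-2.89 ± 0.26, adjusted p = 1.6e-06). Aspm, a spindle pole protein whose loss causes microcephaly, went from 30.1, 34.2 and 40.1 CPM to 5.79, 5.51 and 4.74 CPM (-2.70 ± 0.30). The kinesin Kif15 fell by 2.87 ± 0.33, the spindle factor Tpx2 by 1.89 ± 0.24 and Mki67, the source of the Ki-67 antigen, by 2.08 ± 0.43 on the log2 scale. The 2 that rose were Ckap5 (0.99 ± 0.23), a microtubule polymerase, and Ncapd2 (0.80 ± 0.23), a condensin subunit, whose call was lost without replicate 1 of E17.5.

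DNA replication genes gave 7 fallen and 0 risen of 16, with a median of -0.68. The transcription factor E2f1 (-2.05 ± 0.24), the cyclin Ccnd2 (-2.94 ± 0.40), Uhrf1, which maintains DNA methylation (-1.53 ± 0.25), and the clamp loader subunit Rfc1 (-1.31 ± 0.25) fell. Ccnd2 had 392, 357 and 188 CPM at E13.5 and 25.6, 44.6 and 52.0 CPM at E17.5. The replicative helicase subunits Mcm3 (-0.46 ± 0.42), Mcm4 (-0.34 ± 0.35) and Mcm6 (-0.15 ± 0.42) did not pass.

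Genes of early timing and growth gave 6 fallen and 1 risen of 11, with a median of -1.82 and of -1.94 with sparse genes set at their bound or ratio. Igf2 went from 1024, 972 and 668 CPM to 18.2, 22.7 and 28.9 CPM over 4 rows (-5.25 ± 0.35) and Igf2bp2, an RNA-binding protein that binds its message, from 267, 251 and 309 CPM to 47.6, 51.7 and 36.97 CPM (-2.60 ± 0.28). Hmga1, the relative of Hmga2, fell by 1.46 ± 0.25 on the log2 scale. Lin28b, a timing factor, had under 1 CPM in each library and did not pass the test. Myc, a growth factor-responsive transcription factor, rose from 15.3, 8.44 and 14.7 CPM to 38.8, 38.0 and 41.1 CPM (1.62 ± 0.36).

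Messages of tissues other than the cortical wall fell steeply. Of 14 measured meningeal genes, 13 fell and 0 rose, with a median of -5.86, or -5.37 with sparse genes at their bound or ratio. Col1a1 went from 106, 113 and 90.2 CPM to 1.16, 1.42 and 1.42 CPM over 3 rows (-6.25 ± 0.30, adjusted p = 3.0e-09). Fbn1, the microfibril protein fibrillin, was the one that did not pass (0.05 ± 0.38). Of 6 choroid plexus and hem genes, 5 fell, with a median of -3.61, or -2.08 at the bounds. Over both rows Ttr went from 442, 567 and 570.1 CPM to 2.98, 1.24 and 2.21 CPM, and Otx2, a factor of the choroid plexus, had no count at E17.5 and was at least 10.7-fold lower. With the 6 libraries alone, 3 of the 6 fell. Of the 4 choroid plexus markers, Ttr alone was measured.

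Vascular genes gave 5 fallen of 6, with a median of -2.15. Cdh5, the endothelial cadherin, went from 7.08, 10.9 and 9.47 CPM to 0.496, 0.178 and 0.632 CPM (-4.31 ± 0.49). Col4a1 (-2.36 ± 0.29) and Col4a2 (-1.95 ± 0.30), collagens of the vessel basement membrane, and Tek, an angiopoietin receptor (-3.77 ± 0.55), fell. Kdr, the one defining marker of 6 that was measured, was 5.75 to 16.3 CPM and 3.98 to 8.34 CPM and did not pass. Of 5 microglia and macrophage genes 1 fell, the macrophage chemokine Pf4, with no count at E17.5. Csf1r and P2ry12 summed to 10.1 to 14.6 CPM and 5.82 to 12.3 CPM. The 2 erythroid genes measured, Alas2 and Ermap, were under 1 CPM in every library of either stage and did not pass (median -2.71, or -3.11 with both at their ratio).

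Glial genes gave 3 risen and 2 fallen of 10, with a median of 0.13. Sox10, a factor of oligodendrocyte precursors, had no count in the E13.5 libraries and 8.76, 5.33 and 10.4 CPM at E17.5, at least 60.4-fold higher. Olig2, which acts in the same lineage, went from 0.417, 1.29 and 0.779 CPM to 14.5, 14.0 and 8.22 CPM (3.86 ± 0.54). Nfix rose by 1.51 ± 0.31, while the related Nfia (-2.18 ± 0.31) and Nfib (-1.03 ± 0.28) fell. Bcan, Sparcl1, Cst3, Clu and Apoe, genes of astrocytes and other glia, did not pass, with changes from -0.14 to 0.29. Among Cajal-Retzius cell genes, 3 fell and 2 rose of 7. The factors Ebf2 (-3.48 ± 0.49) and Zic1 (-2.08 ± 0.33) and the chemokine Cxcl12 (-1.35 ± 0.26) fell, and Reln, which encodes reelin, was 38.6, 44.9 and 42.6 CPM and 63.1, 45.8 and 41.6 CPM and did not pass (0.26 ± 0.35). In this list 1 gene rose without replicate 1 or 3 of E13.5 and without replicate 2 of E17.5. Changes of the 7 genes ran from -3.48 to 2.20. The list's median was -0.15 and ranged from -0.32 to 0.03 when libraries were left out.

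RNA granule and translational control genes had 5 risen and 6 fallen of 29 measured, with a median of 0.21. Without replicate 1 of E17.5, 2 fell, and without replicate 3 of either stage, 3 did. Rbfox3, the neuronal splicing factor detected as NeuN, rose by 1.22 ± 0.28 and Fxr2, a relative of the fragile X protein, by 1.10 ± 0.27. Samd4, a homologue of the Drosophila translational repressor Smaug, fell (-1.88 ± 0.42), as did Ago2, the slicing Argonaute (-1.09 ± 0.27). Stau2 itself had 6 rows summing to 86.7, 112 and 108 CPM at E13.5 and 138, 125 and 139.5 CPM at E17.5. The change of 0.39 ± 0.26 did not pass (adjusted p = 0.25), though every E17.5 library was above every E13.5 library. Its last 3' UTR row (chr1:16229183-16229636, minus strand) rose, from 16.4, 12.7 and 10.6 CPM to 30.7, 38.7 and 22.0 CPM (1.20 ± 0.35), a call lost without replicate 3 of E13.5 or replicate 2 of E17.5. Stau1, its relative, had changes of 0.78 in the 3' UTR and -0.27 in the 5' UTR, neither past the test.

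Ribosomal protein genes gave 3 fallen of 15, with a median of -0.64, and the 3 are Rpl6 (-1.03 ± 0.29), Rpl13 (-0.96 ± 0.29) and Rplp1 (-1.21 ± 0.40). The number that fell ran from 0 to 7 when a library was left out, with 7 without replicate 2 of E13.5, 1 without replicate 3 of E13.5 and 0 without replicate 2 of E17.5 (edgeR), and the copies of these genes make them uncertain. Mitochondrial respiration genes gave 4 risen of 14, with a median of 0.40. Sdha, a subunit of complex II, went from 73.6, 48.5 and 56.6 CPM to 200.3, 153 and 164 CPM (1.53 ± 0.25) and Ndufs1, a subunit of complex I, rose by 1.19 ± 0.30. Without replicate 2 of E13.5 or replicate 3 of E17.5, 2 of them rose.

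Chromatin modifiers gave 9 risen and 6 fallen of 29, with a median of 0.19, which was 0.07 without replicate 2 of E17.5. Suz12, a core subunit of Polycomb complex 2, went from 88.3, 90.4 and 85.4 CPM to 16.7, 21.3 and 17.4 CPM (-2.25 ± 0.30). Of the catalytic subunits of that complex, Ezh1 rose from 12.1, 10.3 and 7.27 CPM to 32.1, 40.1 and 44.4 CPM (1.97 ± 0.36), and Ezh2 did not pass (-0.34 ± 0.34). The remodeller Chd7 fell (-1.36 ± 0.23) and Chd3 rose (1.05 ± 0.23). Of 5 measured activity-regulated genes, Ier2 fell (-1.35 ± 0.44) and Nr4a3 rose (1.07 ± 0.40), each with a call lost in 4 of the 6 fits that left out a library.

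The lists were counted again from rows called 3' UTR alone, an alternative added after seeing the data in which fewer of their genes are measured. Over all 5237 genes tested in this way, 893 rose and 1023 fell, with a median change of 0.0087. The counts in this paragraph are to be set against these. Chromatin modifiers then had 5 risen and 0 fallen of 16 (edgeR), with a median of 0.51. Axon guidance genes had 1 risen and 4 fallen of 13, with a median of -0.22. Pan-neuronal genes had 6 risen and 0 fallen of 9, and motor protein genes had 5 and 0 of 14. Cajal-Retzius cell genes had 0 risen and 2 fallen of 5, and RNA granule genes had 3 and 3 of 20, near the shares over all genes. The counts of fallen genes were 13 of 15 for mitosis, 4 of 11 for DNA replication and 2 of 3 for choroid plexus and hem (median -2.16). Upper-layer genes kept 4 risen and 2 fallen, of 7, with a median of 0.82.

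Each row was also tested against the other rows of its gene, which sets aside what the rows of a gene share. Of 3414 genes with several rows, 32 (0.937%) had unequal changes among them in edgeR's diffSpliceDGE. Of these 9 had a risen and a fallen row, among them Septin8, Gprasp1, Nisch, Dnase2a, Slc25a53, Zswim8, Phc2 and Col26a1. An intron row was present in 12 of the 32, and 3 are unnamed gene models. How many of the 3414 genes have an intron row was not counted, so the 12 cannot be set against a share. Without replicate 2 of E17.5 the number was 15 and without replicate 3 of E13.5 it was 18. It was 21 without replicate 1 of E13.5 and without replicate 3 of E17.5.

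Septin8, a filament-forming GTPase, parted along its 3' end (adjusted p = 1.4e-05). The row at chr11:53543805-53543949 (plus strand) lies in the 3' UTR near the end of the shorter transcripts Sept8-201 and Sept8-202, which stop at 53544095 and 53544096. It went from 7.38, 10.4 and 5.24 CPM to 3.02, 3.26 and 2.20 CPM (-1.44 ± 0.39), a call lost without replicate 2 of E13.5. The row at chr11:53548820-53549224 lies in the 3' UTR of Sept8-204, which runs to 53549565. It went the other way, from 0.835, 1.59 and 0.639 CPM to 10.8, 18.4 and 15.9 CPM (3.86 ± 0.49). The exon row upstream of both did not pass (0.01 ± 0.37).

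Gprasp1, a sorting protein for G protein-coupled receptors, parted by location (adjusted p = 2.3e-05). Its 3' UTR row went from 17.8, 31.1 and 15.9 CPM to 68.2, 109.8 and 49.2 CPM (1.81 ± 0.42). Both intron rows fell, the larger from 8.63, 13.2 and 8.18 CPM to 1.68, 1.81 and 3.62 CPM (-2.06 ± 0.46). In Nisch, 3 rows in the downstream part rose, by 1.58, 1.35 and 1.71 in order along the gene. An upstream row in the 3' UTR of the short transcript Nisch-221 fell from 8.21, 7.67 and 5.50 CPM to 2.86, 2.53 and 2.99 CPM (-1.34 ± 0.44). The other upstream row did not pass the test (-1.27 ± 0.50). The row that fell lost its own call without any 1 of 5 libraries, and Nisch was not called unequal among rows of 5 CPM or more.

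Dnase2a aside, 4 more genes had a risen and a fallen row. In Slc25a53, a mitochondrial carrier, the row called intron rose (2.94 ± 0.55) and a 3' UTR row fell (-1.82 ± 0.41). In Zswim8 an exon row rose (1.43 ± 0.34) and an intron row fell, from 16 counts over the E13.5 libraries to 1 count over those of E17.5. The E13.5 to E17.5 ratio of that intron row was 13.02 (95% interval 2.02 to 546, which covers counting error only). Phc2, a Polycomb complex 1 subunit, had an exon row that rose (1.74 ± 0.51) and another that fell (-1.26 ± 0.37). In the collagen gene Col26a1 the intron row rose (2.19 ± 0.61) and the 3' UTR row fell (-2.67 ± 0.62).

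Some genes had rows that rose beside rows that did not pass, and those named next were picked after their values were seen. Gnas, the stimulatory G protein alpha subunit, had a row at chr2:174337886-174338208 (plus strand) at the 3' end of short transcripts such as Gnas-222. It went from 4.73, 3.33 and 3.96 CPM to 35.9, 30.2 and 33.0 CPM (3.04 ± 0.40), while the row at the common 3' end was 1446, 1412 and 1599 CPM and 2139, 1185 and 1692 CPM (0.17 ± 0.36). Tmod3, a capping protein of actin filaments, rose from 0.835, 1.30 and 1.02 CPM to 26.5, 18.99 and 9.59 CPM in the 3' UTR of transcript Tmod3-205 (4.1001 ± 0.52), against -0.47 and 0.55 in its other rows. In Ehbp1, a linker of endocytosis and actin, an exon row (2.09 ± 0.41) and the 5' UTR row (1.64 ± 0.35) rose while the 3' UTR rows were at -0.44 and -0.96. Septin8, Gprasp1, Gnas, Tmod3 and Ehbp1 kept their calls in all alternatives run for them.

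Gnao1, the G protein alpha subunit most common in neurons, was unequal along its 3' end (adjusted p = 0.0074). Its 3' UTR rows within transcript Gnao1-207, which ends at 93960690, had changes of -0.30 and 0.06. The rows beyond it, toward the end of Gnao1-201 at 93969388, rose by 2.20 and 2.04. The last went from 243, 356 and 195 CPM to 816, 1145 and 1315 CPM. The gene lost its call without replicate 3 of E13.5 and without replicate 2 or 3 of E17.5. Some rows overlap other genes: those of Dnase2a that rose lie opposite Mast1, and that of Cep295 that rose lies over the small RNA gene Scarna9 on the same strand. The part of the neighbours in these values was not tested.

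Rows called 3' UTR held 34.1% ± 0.52 of gene-row counts at E13.5 and 39.96% ± 0.93 at E17.5 (SD, n = 3), a difference of 5.88 percentage points. Intron rows went from 32.4% ± 1.65 to 27.7% ± 1.41, 5' UTR rows from 5.55% ± 0.37 to 4.79% ± 0.37 and exon rows from 28.0% ± 1.25 to 27.6% ± 1.66. The 3 libraries of a stage did not overlap the other for 3' UTR and intron rows, where the exact permutation test gave its smallest p of 0.1 for 3 against 3 libraries (two-sided, adjusted p = 0.2 over 4 locations). The intron difference was -4.68 percentage points, -0.34 without the 10 rows with the most counts and 0.17 when rows of 5 CPM or more were counted in place of their reads.

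The test by row also differed with location. Of 6640 tested rows called 3' UTR, 17.4% rose and 13.6% fell, with a median change of 0.14. Of 1126 rows called 5' UTR, 6.75% rose and 21.8% fell, with a median of -0.38. Of 5868 exon rows 10.9% rose and 15.9% fell (median -0.11), and of 467 intron rows 8.35% and 10.5% (median -0.04). The table's locations often do not match GENCODE: the centres of 920 rows called 3' UTR and 338 called 5' UTR lie in coding exons there. Of the rows called 5' UTR, 316 have their centre in a GENCODE 5' UTR and 402 in an intron. Of the rows called exon, 1928 have it in an intron. Of the 316 rows in GENCODE 5' UTRs, 7.91% rose and 29.7% fell. Of 4995 rows in GENCODE 3' UTRs, 18.4% rose and 14.7% fell.

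**Figure D4:**
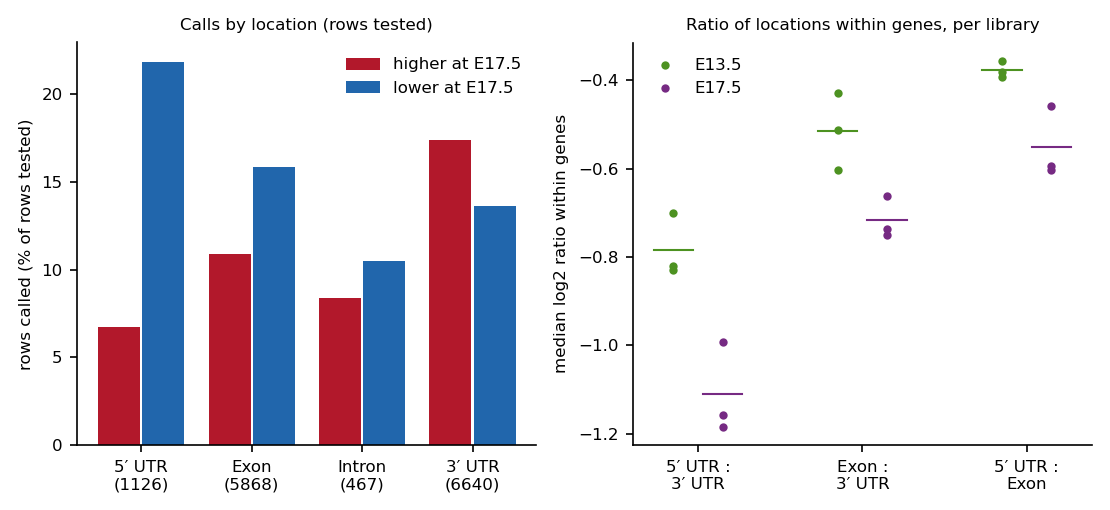
The left panel gives the share of tested rows that rose or fell at E17.5 (percent), by the table's location, and the right panel the median log2 ratio of 2 locations within the same genes in each library, with a bar at the mean of a stage. Rows called 5' UTR have 6.75% risen and 21.8% fallen, and for the ratios of 5' UTR or exon to 3' UTR rows every E17.5 library lies below every E13.5 library.

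Among 3' UTR rows with a sequence, base composition differed with these calls. Of 4995 tested rows whose centre lies in a GENCODE 3' UTR, transcript sequence could be taken for 4201 (84.1%). It could be taken for 78.9% of those that rose and 90.1% of those that fell. The rows with a sequence were split by GC content into 4 bins of near-equal size, a split chosen after seeing the data. The bins describe only those rows and are no check of all 3' UTR rows that changed. In the lowest bin (up to 38.6% GC) 11.9% rose and 18.6% fell, with a median change of -0.09. In the highest bin (from 50.9% GC) 24.9% rose and 9.90% fell, with a median of 0.42. The median log2(CPM + 0.5) of the highest bin minus that of the lowest was -0.10, -0.22 and 0.20 in the E13.5 libraries and 0.34, 0.31 and 0.48 in the E17.5 libraries. The stages did not overlap, and the part of base composition in the changes was not tested.

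The comparison was repeated within genes by the table's locations, which often differ from those of GENCODE. In 594 genes with both kinds of row, the 5' UTR change was lower than the 3' UTR change in 439 (73.9%), with a median difference of -0.34. The median log2 ratio of 5' UTR to 3' UTR level within genes was -0.83, -0.82 and -0.70 in the E13.5 libraries and -1.16, -1.18 and -0.99 in the E17.5 libraries. The stages did not overlap, and the exact permutation test gave p = 0.1, the smallest it can give (two-sided, adjusted p = 0.13 over 4 ratios). Exon to 3' UTR ratios went from -0.51 ± 0.09 to -0.72 ± 0.05 over 1761 genes and 5' UTR to exon ratios from -0.38 ± 0.02 to -0.55 ± 0.08 over 429 genes (SD, n = 3), each with exact p = 0.1. The intron to 3' UTR ratio over 94 genes was -1.13 ± 0.31 and -1.28 ± 0.16, with libraries that overlapped (exact p = 0.7). These ratios were added after seeing the data, and the part of the lower gene-row totals at E17.5 in them was not tested.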

How the data were processed

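STAU2-bound RNA from embryonic mouse cortex was sequenced after immunoprecipitation, 3 libraries at each of 4 stages, and the comparison of E17.5 with E13.5 is described. The deposited table gives a count per library for each strand-specific row of a merged peak, with a peak score and a location. Counts are whole numbers and were not normalized by the authors, as far as the values show. The deposited peak score was used only to split rows at its median. The submitters' processing notes name HOMER 4.10, mm10 and GRCm38, while for the aligner and for multiply mapped reads nothing is stated (not given in the sources used here). Rows that were Intergenic (4513) or had no gene symbol (170) were left out and held 63.4% to 64.4% of counts at E13.5 and 68.8% to 72.3% at E17.5.

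Rows were tested with edgeR 4.0.16 in R 4.3.3 (filterByExpr, TMM, quasi-likelihood test) in 1 fit of the 12 libraries with stage as the only term, and Benjamini-Hochberg adjusted p under 0.05 was called. The filter left out 191 rows. The same fit was made on counts summed per gene and, for rows within genes, with diffSpliceDGE. Location shares were compared with the exact permutation test over libraries. Scripts were tested on simulated data. Alternatives were relative log expression scaling, the gene-row total, no filter, the 6 libraries alone, a replicate block, each library left out, DESeq2 1.42.0, a test against a 1.5-fold change (glmTreat) and rows of high peak score.

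Named rows are the 12 with the largest rise and fall among called rows with no overlap and at least 20 CPM in the higher stage, and the 6 with the most counts in each direction. Unnamed gene models and further rows of a gene already picked were skipped in these picks. The 4 genes with the smallest p in each list, the genes with a risen and a fallen row, and Stau2, Stau1, Eomes, Pax6, Sox2 and Tbr1 are named too, and some genes the rule covers are not reported here. Other genes were named after their values were seen, mostly those moving against their list or not passing. Members, lists and markers were chosen with earlier results of these data known. Transcript ends and locations marked as such are from GENCODE M21.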

Additional observations from a re-analysis of the deposited data

How the results depend on the processing

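No row called both in the main fit and in an alternative changed direction there. Called rows that lost their call in an alternative are not covered by this comparison. Among values with no call, the intron share turned to 0.17 by number of rows, and the exon share (-0.44 percentage points) ran from -1.38 to 0.19 without 1 library and the Cajal-Retzius median from -0.32 to 0.03. Some single genes and rows that did not pass the test changed sign too. The number of changed rows, 4039, was 4034 with relative log expression scaling, 3915 with the gene-row total, 4031 without the filter, 4097 with the 6 libraries alone, 4405 with DESeq2 (3991 of the 4039 kept) and 3151 to 3372 without 1 library. It was 2055 (977 higher, 1078 lower at E17.5) among rows with a peak score at or above the median, where fewer rows were tested, and 2591 (1209 higher, 1382 lower) when tested against a 1.5-fold change, a stricter test. The number of changed genes was 2352 to 2428 without 1 library, 3077 with DESeq2 and 1916 (893 higher, 1023 lower) from rows called 3' UTR alone, an alternative added after seeing the data that tests 5237 genes. Genes with unequal rows numbered 15 to 27 without 1 library, 22 among rows of 5 CPM or more and 29 with the 6 libraries alone. The difference in the share of counts, E17.5 minus E13.5, without the 10 rows with the most counts was 4.97 percentage points for 3' UTR, -1.56 for 5' UTR, -3.07 for exon and -0.34 for intron rows. As a share of rows at 5 CPM or more it was 1.47 for 3' UTR and 0.17 for intron rows. Of 244 called list genes, 192 kept their call in every alternative run for them other than rows called 3' UTR alone, which this count leaves out. The other 52 lost it when some library was left out. Of 45 called rows that the naming rule covers, 38 kept it and 7 lost it so. Of same-numbered libraries, the pair of replicate 2 deviated together (correlation 0.52) and those of replicates 1 and 3 did not (-0.15 and 0.06), so the numbers were not taken as pairs. With a replicate block 4529 rows, 3072 genes and 46 genes with unequal rows were called. Transcript sequence could be taken for 46.2% of rows, so a check of GC content and folding over all rows is void. A check over all risen 3' UTR rows is void too, as 78.9% of them had a sequence. The GC values given for 3' UTRs describe only rows with a sequence. Rows near the filter hold few counts, which limits the precision of their changes.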
